A study of Mus musculus with 10 samples.

Results

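The genes that remained changed in the mouse hippocampus at 6 h after status epilepticus (SE), a seizure state that does not end by itself, despite treatment with levetiracetam (LEV), were examined by comparing SE + LEV 6 h mice with pre-SE mice. The comparison used 2 mice on each side, which were 4 of the 10 mice of the study. All mice were of the ICR strain, and 5' ends of capped RNA from their whole hippocampi were sequenced by cap analysis of gene expression (CAGE), in which a tag reports where a transcript begins. Pre-SE mice were labelled untreated, and the methods describe saline in place of pilocarpine (PILO) for control mice. SE + LEV 6 h mice received methyl scopolamine, then PILO at 290 mg/kg, a muscarinic agonist that evokes seizures, and diazepam to end SE, followed by LEV given 1 time by mouth at 360 mg/kg, and their hippocampi were taken at 6 h. SE 6 h mice (2) received the same without LEV, and SE + LEV 2 days mice (2) received LEV 5 times. SE 2 days mice (2) received PILO without LEV, and their libraries also entered the spread that the main test shares among groups. No group received LEV without PILO, and whether pre-SE mice received methyl scopolamine or diazepam is not clear from the methods. Values given as a pair are those of replicate 1 and replicate 2 of a group.

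LEV is an anti-epileptic drug that binds the synaptic vesicle protein SV2A. Intense firing switches on immediate early genes, first those for transcription factors such as the Fos and Jun proteins of AP-1 and then effector genes that act at synapses or dampen excitability. Glia and vessels respond in parallel with cytokines, chemokines and acute phase genes, many of them under the control of NF-kappaB or of STAT3, the latter being activated through gp130 by LIF and other cytokines of the IL-6 family.

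At 6 h after SE with LEV, 50 of the 15851 genes tested remained higher than in pre-SE mice (0.315%) and 1 was lower (0.00631%). A gene was called at an adjusted p of at most 0.05 in limma, which was fitted to log2(CPM + 0.1), where CPM is the tag count scaled to the depth of the library, and a logFC is a difference on that log2 scale, which understates changes of genes with low CPM. Of the 50 genes called higher, 20 were members of the gene lists described below. They were the transcription factors *Maff*, *Fosb*, *Myc* and *Klf4*, the effectors *Sik1* and *Trib1*, the growth factor *Lif*, the cytokines *Ccl2*, *Ccl4* and *Tnf*, the cytokine receptor and NF-kappaB pathway genes *Socs3*, *Bcl3* and *Osmr*, the endothelial genes *Icam1*, *Angpt2* and *Lrg1*, the protease receptor *Plaur*, the astrocyte gene *Lcn2* and the stress genes *Gadd45b* and *Cdkn1a*. The other 30, among them *Gem*, *Pcdh8*, *Ctla2a*, *Tubb6* and *Neat1*, fell outside the lists. The logFC of the 50 ran from 1.43 to 6.14 with a median of 2.99 and a median standard error (s.e.) of 0.42, and in all 50 both mice given LEV were above both pre-SE mice, as they were in 17.0% of all genes tested. For SE without LEV, limma called 437 higher (2.76%) and 32 lower (0.202%). DESeq2, on tags recovered from the CPM values, called 351 higher with LEV (2.21%) and 1008 without (6.36%). The direct test of LEV against no LEV at 6 h gave 0 higher (0.0%) and 2 lower (0.0126%) in limma, 184 (1.16%) and 542 (3.42%) without adjustment at p under 0.05, 0 and 0 in edgeR and 6 and 69 in DESeq2.

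The calls depended on both mice given LEV. Without replicate 1 of SE + LEV 6 h, which leaves the shallowest library as the only one given LEV, limma called 0 genes higher and 0 lower, although 762 and 552 passed an unadjusted p under 0.05, the adjusted p of the 50 genes ran from 0.0858 to 0.264, and all 50 were still estimated higher, with a median logFC of 2.80. Without replicate 2 the calls were 16 higher and 0 lower, and without pre-SE replicate 1 or 2 they were 6 or 5 higher and 0 lower. Leaving out SE 6 h replicate 2, which only lends its spread to the test, gave 33 higher and 1 lower.

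**Figure D1:**
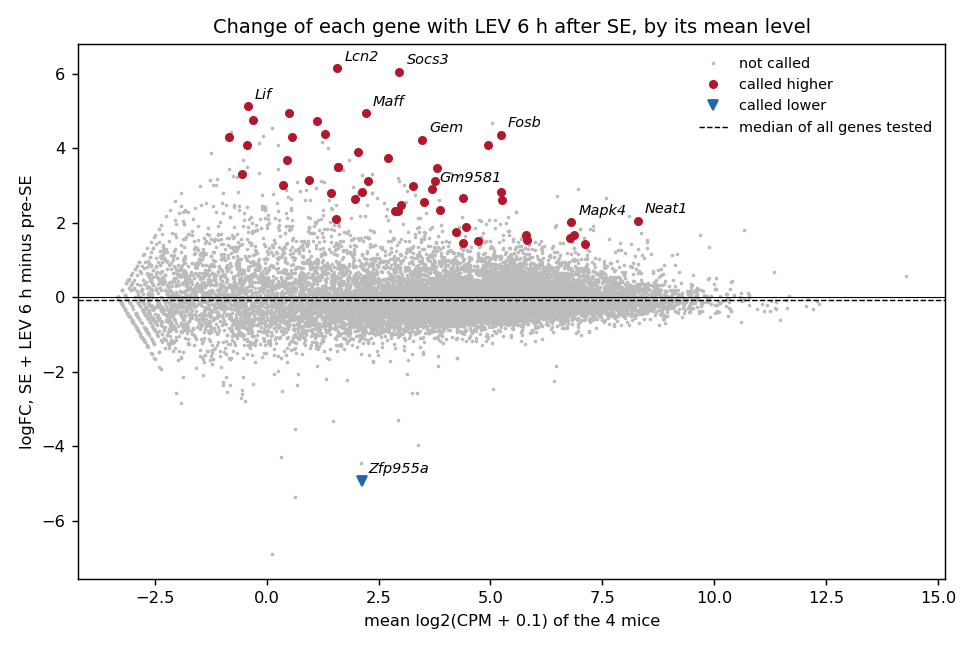
Each point is 1 of the 15851 genes tested, with the mean log2(CPM + 0.1) of the 2 pre-SE and the 2 SE + LEV 6 h mice on the horizontal axis and the logFC of SE + LEV 6 h minus pre-SE on the vertical axis. The 50 genes called higher (red circles) have mean levels from −0.84 to 8.29, within a range of −3.32 to 14.28 over all genes tested, *Zfp955a* (blue triangle) was the only gene called lower, and the dashed line marks the median of all genes at −0.08.

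The libraries held 10540698 to 51710968 tags on the listed genes, a ratio of 4.91. The 2 mice given LEV had 30096467 and 10540698 tags, so that 3 tags were worth 0.0997 and 0.285 CPM, and the 2 pre-SE mice had 28995961 and 51710968. Neuronal markers were present as a hippocampal label requires, at a summed CPM of 3308 and 2271 before SE and 3365 and 2416 with LEV (8 of 9 listed, 0 called). Choroid plexus markers (4 of 8 listed, 0 called) varied by library and not by group, since their summed CPM was 12.6 and 1709.6 before SE, 8.72 and 4025 at 6 h without LEV and 869 and 41.3 with LEV, and their part in the results was not tested. In whole tissue, fewer cells of a type and less RNA per cell cannot be told apart. An exact permutation test of 2 mice against 2 cannot give a two-sided p below 0.333, and limma makes its calls by sharing the spread among genes and groups.

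The RefSeq sequence upstream of the annotated start is shown for leading genes. These had the largest logFC in the reactive astrocyte, cytokine receptor and NF-kappaB, growth factor, protease and AP-1 lists. Sites of STAT3, which is discussed below, were not searched for. RefSeq promoters (GRCm38.p6) were matched by symbol for 32 of the 50 genes, and the 250 bases before the start are printed 5' to 3' on the gene's strand, with AP-1, CRE and NF-kappaB matches in capitals.
*Lcn2*, chr2:32387740-32387989, minus strand: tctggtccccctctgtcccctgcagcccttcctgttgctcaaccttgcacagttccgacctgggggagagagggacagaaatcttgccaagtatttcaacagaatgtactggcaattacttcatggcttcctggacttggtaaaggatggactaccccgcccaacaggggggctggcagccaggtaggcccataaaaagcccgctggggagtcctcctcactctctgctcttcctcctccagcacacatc
*Socs3*, chr11:117969367-117969616, minus strand: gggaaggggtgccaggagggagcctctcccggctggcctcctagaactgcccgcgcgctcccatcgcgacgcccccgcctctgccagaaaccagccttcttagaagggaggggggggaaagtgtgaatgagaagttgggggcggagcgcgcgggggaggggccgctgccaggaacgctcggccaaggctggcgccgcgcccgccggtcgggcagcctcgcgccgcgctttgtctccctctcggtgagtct
*Lif*, chr11:4257318-4257567, plus strand: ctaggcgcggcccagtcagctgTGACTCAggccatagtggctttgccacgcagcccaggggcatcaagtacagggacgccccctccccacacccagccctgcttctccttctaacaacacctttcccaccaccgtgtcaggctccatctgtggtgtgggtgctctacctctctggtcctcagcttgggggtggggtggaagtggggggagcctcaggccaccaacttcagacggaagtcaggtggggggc
*Plaur*, chr7:24462233-24462482, plus strand: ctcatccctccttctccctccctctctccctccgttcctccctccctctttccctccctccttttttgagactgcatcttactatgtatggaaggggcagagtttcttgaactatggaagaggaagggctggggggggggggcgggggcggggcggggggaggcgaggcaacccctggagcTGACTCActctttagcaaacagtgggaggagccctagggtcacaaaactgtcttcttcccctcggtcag
*Maff*, chr15:79347270-79347519, plus strand: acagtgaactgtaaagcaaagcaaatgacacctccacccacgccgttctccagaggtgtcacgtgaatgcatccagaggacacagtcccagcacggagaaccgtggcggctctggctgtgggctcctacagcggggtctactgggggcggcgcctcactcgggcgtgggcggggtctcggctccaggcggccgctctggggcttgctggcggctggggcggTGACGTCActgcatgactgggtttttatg
*Maff*, chr15:79348152-79348401, plus strand: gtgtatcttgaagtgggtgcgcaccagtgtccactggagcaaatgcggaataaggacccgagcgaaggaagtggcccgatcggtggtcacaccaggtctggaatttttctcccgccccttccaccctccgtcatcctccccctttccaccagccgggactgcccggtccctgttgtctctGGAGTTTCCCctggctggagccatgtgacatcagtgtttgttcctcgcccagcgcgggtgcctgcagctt
The capitals in *Lif* and *Plaur* are the AP-1 motif TGANTCA, read on both strands, which lay at −228 to −222 and at −69 to −63 from the start. In the first *Maff* promoter printed they are the CRE TGACGTCA at −29 to −22, the sequence bound by CREB, and in the second an NF-kappaB site at −70 to −61, while the other *Maff* promoter and those of *Lcn2* and *Socs3* held none of these motifs in this window.

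Of the 32 matched genes, 4 (*Lif*, *Plaur*, *Ctla2a* and *Ctla2b*) held TGANTCA, which is 12.5% against 5.43% of the 10085 matched genes among all tested and 7.82% of the 27025 genes of the RefSeq table. *Ctla2a* and *Ctla2b* are neighbouring close paralogs, so their matches may not be separate cases. TGACGTCA was held by *Maff* and *Arl4d* (6.25% against 3.11% of the matched genes tested). *Fosb*, *Maff* and *Grasp* held the NF-kappaB site (9.38% against 5.87%) and 0 genes held a CArG box, the site of the serum response factor (1.48% of the matched genes tested). Matches of different motifs did not overlap. TATAAA was held by 6 genes (18.8% against 4.68% of the matched genes tested and 8.94% of the genes of the RefSeq table), among them *Gadd45b*, *Pcdh8* and *Tnf*. These counts describe letters in this window only and say nothing of which factors bound there.

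*Lif*, *Socs3* and *Osmr*, all called higher, have known roles in gp130 and STAT3 signalling, for which no list of its own was drawn up. They were put together after their values were seen. *Lif* encodes a ligand of this pathway, *Osmr* the receptor subunit for oncostatin M, and *Socs3* the feedback inhibitor that STAT3 induces. Other genes of the pathway did not pass the test. They were *Il6*, *Osm* and *Il6ra* (logFC 1.32, 2.35 and 0.92, limma adjusted p = 0.485, 0.304 and 0.392), and *Stat3* and *Clcf1*, given below. *Lif* (ENSMUSG00000034394, mm9 chromosome 11 from 4157560 to 4172517) had 0 and 0.06 CPM before SE, 2.19 and 8.35 with LEV and 3.08 and 3.29 without LEV. Both mice given LEV were above both pre-SE mice, and their values spanned those without LEV. Its logFC reached 5.12 (s.e. 0.72, limma adjusted p = 0.02), and since the pre-SE mice had only 3 tags in all, the ratio of summed tags scaled to depth was 102 (95% counting interval 34.2 to 499.8).

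*Socs3* (ENSMUSG00000053113, chromosome 11 from 117827393 to 117831361) had 0.83 and 0.89 CPM before SE, 87.2 and 46.5 with LEV and 53 and 133 without. The groups with SE overlapped each other and lay far above the pre-SE mice, with logFC values of 6.05 with LEV (s.e. 0.58, limma adjusted p = 0.00686) and 6.46 without. *Osmr* had 1.17 and 2.01 CPM before SE and 11.8 and 16.6 with LEV, against 14.1 and 24.7 without. Its logFC was 3.11 (limma adjusted p = 0.0195), and the values with and without LEV overlapped.

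*Bcl3*, an atypical inhibitor of NF-kappaB that also responds to STAT3, rose from 0.31 and 0.17 CPM to 6.94 and 6.07 with LEV (logFC 4.31, limma adjusted p = 0.0141), and SE 6 h mice had 7.89 and 9.18. Among the 19 tested genes of the list of cytokine receptors, Toll-like receptors and NF-kappaB pathway genes, these 3 (*Socs3*, *Bcl3* and *Osmr*) were called higher in limma (9 in DESeq2), 0 were called lower and 15 were higher at an unadjusted p under 0.05. Over all genes tested, against which this and every other list count was read, the shares were 0.315% in limma, 2.21% in DESeq2 and 5.53% without adjustment. The list median was 1.26 with LEV and 1.62 without, against −0.08 and −0.13 for all genes. *Cd14*, the co-receptor for lipopolysaccharide, had 1.31 and 0.43 CPM before SE and 16.9 and 5.6 with LEV (logFC 3.51, limma adjusted p = 0.0575) and did not pass the test, nor did *Nfkb2* at a logFC of 2.42 (adjusted p = 0.0748) or *Stat3* itself at 1.26 (adjusted p = 0.225).

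The largest logFC of the 50 genes, and the widest ratio between the 2 mice given LEV, were those of *Lcn2* (ENSMUSG00000026822, chromosome 2 from 32240153 to 32243317). It encodes lipocalin-2, an iron-scavenging protein and a marker of reactive astrocytes, and had 0.24 and 0.27 CPM before SE, 76.1 and 8.16 with LEV and 9.81 and 14.7 without. The first mouse given LEV stood above, and the second below, both SE 6 h mice. Its logFC reached 6.14 (s.e. 0.85, limma adjusted p = 0.0195), and the difference from SE 6 h mice, 1.05, had a 95% interval of −0.83 to 2.94. *Lrg1*, a secreted glycoprotein made in the acute phase and by activated endothelium, had 0 and 0.06 CPM before SE (3 tags in all), 1.93 and 2.94 with LEV and 1.32 and 2.26 without, a ratio of summed tags of 58.9 (95% counting interval 19.5 to 291) and an adjusted p of 0.00897 in limma.

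Of 21 reactive astrocyte genes tested, *Lcn2* was the only one called higher in limma, DESeq2 called 8 higher, 11 were higher at an unadjusted p under 0.05 and 0 were called lower. The list median was 1.52 with LEV and 2.53 without, and by mouse it was 1.89 and 1.34 with LEV and 2.46 and 2.54 without. *Emp1* (0.48 and 0.93 CPM before SE and 8.47 and 3.98 with LEV) and *Ptx3* (0.48 and 0.27 and 2.43 and 4.84), both assigned to the A2 astrocyte state, had logFC of 2.94 and 2.93 and did not pass the test (limma adjusted p = 0.225 and 0.234). Astrocyte identity markers (7 of 7 listed, 0 called) had a summed CPM of 3017 and 2484 before SE and 2885 and 2099 with LEV.

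**Figure D2:**
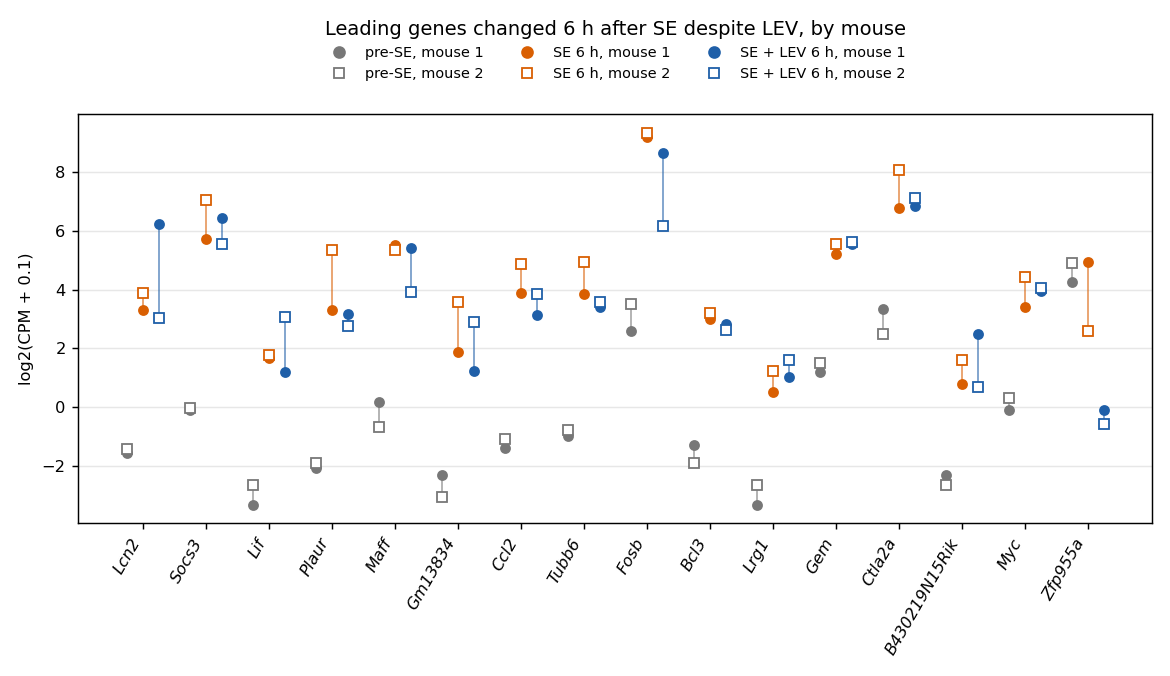
Expression as log2(CPM + 0.1) in each pre-SE, SE 6 h and SE + LEV 6 h mouse, for the 15 genes with the largest logFC among those called higher with LEV and for *Zfp955a*, the gene called lower. Filled circles are replicate 1, open squares replicate 2, and lines join the 2 mice of a group. In the 15 genes both mice given LEV lie above both pre-SE mice, and in *Zfp955a* they lie below all others.

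Among AP-1 and related transcription factors, 2 of 9 tested were called higher in limma (8 in DESeq2) and 8 were higher at an unadjusted p under 0.05. *Maff*, which encodes a small Maf protein that pairs with other bZIP factors, had 1.03 and 0.52 CPM before SE, 42.7 and 15.2 with LEV and 46 and 40.8 without. Its logFC was 4.93 (s.e. 0.48, limma adjusted p = 0.00686), and the 2 mice given LEV were above both pre-SE mice, with 1 of them between the SE 6 h mice. *Fosb*, which encodes a Fos partner of Jun, had 5.9 and 11.2 CPM before SE, 398 and 72.4 with LEV and 586 and 645 without. Both mice given LEV were below both SE 6 h mice, and their logFC from pre-SE mice was 4.37 (limma adjusted p = 0.033).

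Of the 14 pathway lists, the AP-1 list differed most between the 2 mice given LEV. Its median difference from the pre-SE mean was 4.16 in the first mouse given LEV and 2.33 in the second, against 5.43 and 5.15 in SE 6 h mice, and the list median was 3.25 with LEV and 5.29 without. *Fosl1*, which encodes FRA-1, had 0.03 and 0.02 CPM before SE (1 tag in each mouse), 2.29 and 2.94 with LEV and 10.7 and 13.2 without. It did not pass the test with LEV (logFC 4.43, limma adjusted p = 0.0584), although both mice given LEV were above both pre-SE mice and the ratio of summed tags scaled to depth was 99.3 (95% counting interval 26.8 to 831). *Atf3*, a stress-induced repressor, had 0.24 and 1.1 CPM before SE, 16.4 and 6.36 with LEV and 67.5 and 59.5 without (logFC 4.02, limma adjusted p = 0.128).

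Other immediate early transcription factors gave 2 calls of 22 tested in limma, *Myc* and *Klf4*, and 7 in DESeq2, with 13 higher at an unadjusted p under 0.05 and a list median of 1.35 with LEV and 2.67 without. *Myc*, a regulator of growth and metabolism, had 0.83 and 1.14 CPM before SE, 15.2 and 16.5 with LEV and 10.5 and 21.4 without. The mice given LEV lay between the 2 SE 6 h mice, at a logFC of 3.89 (s.e. 0.43, limma adjusted p = 0.00897) against 3.82 without LEV. *Klf4* had 2.86 and 3.87 CPM before SE, 20.1 and 14 with LEV and 31.1 and 28 without (logFC 2.30, limma adjusted p = 0.0375). *Egr3*, a zinc finger factor of active neurons, had 81.4 and 70.7 CPM before SE, 800.2 and 291 with LEV and 604 and 247 without but did not pass the test (logFC 2.67, limma adjusted p = 0.061). *Csrnp1* did not pass either (0.07 and 0.02 CPM before SE and 1.86 and 0.19 with LEV, logFC 2.40, adjusted p = 0.542).

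The next 5 called genes belong to no list and are known from neurons or their signalling, and they were put together after their values were seen. *Gem* (ENSMUSG00000028214, chromosome 4 from 11631604 to 11641899) encodes a small GTPase that inhibits voltage-gated calcium channels, and had 2.21 and 2.73 CPM before SE, 46.6 and 49.1 with LEV and 37.3 and 46.5 without. Both mice given LEV were above both SE 6 h mice, but the difference of 0.20 had a 95% interval of −0.86 to 1.26, while the logFC from pre-SE mice was 4.23 (s.e. 0.48, limma adjusted p = 0.00897). *Pcdh8*, an activity-regulated protocadherin of synapses, had 13 and 15.1 CPM before SE, 115 and 87.8 with LEV and 105 and 143 without (logFC 2.84, limma adjusted p = 0.00897). *Rgs7*, which speeds the turning off of G proteins, had 2.31 and 1.24 CPM before SE and 19.9 and 28.3 with LEV (logFC 3.73, limma adjusted p = 0.0195). *Sorcs3*, a sorting receptor of synapses, and *Grasp*, a scaffold of metabotropic glutamate receptors, rose from higher levels, from 32.1 and 29.8 CPM to 78.3 and 125 and from 77.2 and 92.1 to 198 and 261 (logFC 1.68 and 1.43, limma adjusted p = 0.0329 and 0.0375).

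The list of activity-regulated effector genes held 2 calls of 19 tested in limma and 11 in DESeq2, with 16 higher at an unadjusted p under 0.05 and a median of 1.67 with LEV and 2.48 without. *Sik1*, a kinase that restrains CREB-dependent transcription, had 17.5 and 13.6 CPM before SE, 109 and 81 with LEV and 224 and 133 without (logFC 2.60, limma adjusted p = 0.0297). *Trib1*, a pseudokinase, had 6.59 and 6.23 CPM before SE, 37.7 and 28.2 with LEV and 65.3 and 67 without (logFC 2.33, limma adjusted p = 0.0375). In both genes the mice given LEV lay above both pre-SE mice and below both SE 6 h mice. *Acan* and *Gpr3* were the uncalled members with the largest logFC, 3.13 and 2.84 (limma adjusted p = 0.101 and 0.198). Of 14 MAP kinase phosphatases and Sprouty or Spred genes, which switch off ERK signalling, 0 were called in limma (4 in DESeq2), 6 were higher at an unadjusted p under 0.05 and the median was 0.69 with LEV and 1.53 without. *Spry2* and *Dusp4* led them with logFC of 2.02 and 1.82 (adjusted p = 0.111 and 0.277).

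In the heat shock and stress list, limma called 2 of 20 tested genes higher, *Gadd45b* and *Cdkn1a*, and DESeq2 called 6, adding *Gadd45a*, *Gadd45g*, *Bag3* and *Hmox1*. *Gadd45b*, which encodes a stress sensor that activates p38 and takes part in DNA demethylation, had 5.14 and 4 CPM before SE, 39.5 and 40.3 with LEV and 67.9 and 87.3 without (logFC 3.11, s.e. 0.36, limma adjusted p = 0.00897). *Cdkn1a*, which encodes the cell cycle inhibitor p21, had 9.14 and 7.33 CPM before SE, 75.3 and 36.9 with LEV and 91.5 and 113 without (logFC 2.67, limma adjusted p = 0.0186). For both, the 95% interval of the difference between LEV and no LEV lay below 0, at −1.74 to −0.15 and −1.75 to −0.15, but the adjusted p of that difference was 0.962.

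*Hspa1a*, the inducible HSP70 chaperone, had 47.6 and 41.5 CPM before SE, 63.3 and 32.7 with LEV and 10861 and 1278 without. Its logFC from pre-SE mice was 0.03 with LEV (limma adjusted p = 0.994) and 6.39 without (adjusted p = 0.00542), and the direct difference of −6.35 had an adjusted p of 0.0665. *Dnajb1*, its co-chaperone, had 58.5 and 71.4, 116 and 66.3 and 728 and 398 CPM in the same order, with a direct difference of −2.62 (limma adjusted p = 0.0509). These 2 genes were named after their values were seen. The list median was 0.31 with LEV and 1.79 without, and 14 of its 20 genes were lower with LEV than without at an unadjusted p under 0.05, against 3.42% of all genes. By mouse, the median difference from the pre-SE mean was 0.59 and 0.19 with LEV and 2.12 and 1.37 without. The 2 SE 6 h mice lay far apart in summed CPM of the list, at 23340 and 6795. That sum was 2766 and 2641 before SE and 3382 and 2733 with LEV. *Bag3* and *Gadd45g*, the uncalled members with the largest logFC, were at 1.89 and 1.55 (adjusted p = 0.118 and 0.369).

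**Figure D3:**
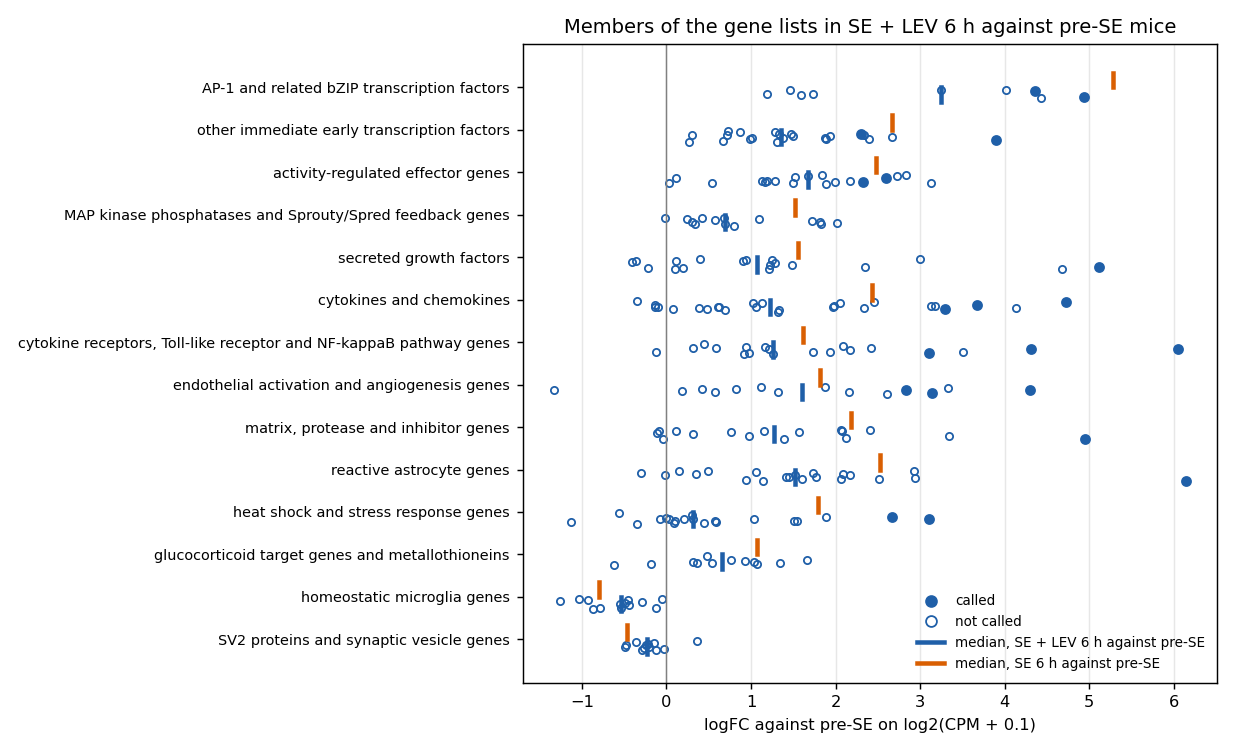
Each circle is 1 tested member of a gene list, placed by its logFC of SE + LEV 6 h against pre-SE on the log2(CPM + 0.1) scale, and filled if called. Vertical bars are list medians with LEV (blue) and for SE 6 h against the same pre-SE mice (orange). Called genes sit in 10 of the 14 lists, and the medians of AP-1 genes lie at 3.25 and 5.29 and those of heat shock and stress genes at 0.31 and 1.79.

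Of 26 cytokine and chemokine genes tested, 3 were called higher in limma and 7 in DESeq2. *Ccl2*, the attractant of monocytes, had 0.28 and 0.37 CPM before SE, 8.61 and 14.3 with LEV and 14.8 and 28.9 without. Both mice given LEV were above both pre-SE mice and below both mice without LEV, and the logFC was 4.73 (s.e. 0.68, limma adjusted p = 0.0224), with a difference from SE 6 h mice of −0.89 (95% interval −2.41 to 0.63). *Ccl4*, an attractant of monocytes and T cells, had 0.41 and 0.19 CPM before SE, 6.61 and 3.51 with LEV and 24.9 and 18.7 without (logFC 3.68, limma adjusted p = 0.0485), and the 95% interval of its difference from SE 6 h mice was −3.54 to −0.74. *Tnf* had 0.24 and 0.04 CPM before SE (9 tags in all) and 2.33 and 1.8 with LEV (logFC 3.30, limma adjusted p = 0.0442). These levels were low, and neither *Ccl4* nor *Tnf* was called when any 1 pre-SE, SE 6 h or SE + LEV 6 h mouse was left out.

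*Ccl3*, which lies beside *Ccl4*, had 0.28 and 0.02 CPM before SE, 7.31 and 1.8 with LEV and 35.4 and 14.7 without, and did not pass the test with LEV (logFC 4.14, limma adjusted p = 0.0748). *Cxcl1*, which attracts neutrophils, did not pass either (0.1 and 0.02 CPM before SE and 2.19 and 0.76 with LEV, adjusted p = 0.109). The list median was 1.23 with LEV and 2.44 without, and 11 of the 26 were higher at an unadjusted p under 0.05. A pair of genes outside the lists was also called: *C5ar1*, the receptor of complement fragment C5a, rose from 0.41 and 0.31 CPM to 2.76 and 4.65 (logFC 3.01, limma adjusted p = 0.028), and *Blnk*, an adaptor of B cells and macrophages, from 4.14 and 2.71 to 27.4 and 26.7 (logFC 2.97, adjusted p = 0.0082).

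Genes listed as blood leukocyte markers also had higher values with LEV. *Ptprc*, which is not particular to blood leukocytes, had 1.97 and 1.62 CPM before SE and 4.72 and 5.22 with LEV. Of 7 markers 3 were listed (*Ptprc*, *S100a8* and *S100a9*), 0 were called, all 3 were higher at an unadjusted p under 0.05, and their summed CPM was 2.56 and 3.22 before SE, 9.67 and 10.9 with LEV and 7.34 and 7.74 without. Of 7 erythroid markers 2 were listed (*Hbb-b1* and *Hbb-b2*), and their summed CPM was 22.6 and 23.8 before SE, 3.92 and 7.21 with LEV and 8.73 and 12.5 without. The part of these cells in the results was not tested. Microglial identity genes had lower estimates. Of 13 homeostatic microglia genes 0 were called in limma (0 in DESeq2), all 13 were estimated lower, 3 at an unadjusted p under 0.05 against 3.85% of all genes, and the median was −0.54 with LEV and −0.80 without. *P2ry12*, the ADP receptor of resting microglia, had 41.5 and 26.9 CPM before SE, 18.7 and 14.1 with LEV and 6.51 and 5.14 without (logFC −1.03, limma adjusted p = 0.471), and *Gpr34* had a logFC of −1.26 (adjusted p = 0.225). The 7 microglia markers, of which 5 are also in that list, had a summed CPM of 372 and 437 before SE and 294 and 277 with LEV.

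*Icam1*, the adhesion molecule that leukocytes bind, had 1.52 and 1.59 CPM before SE, 18.4 and 7.4 with LEV and 8.98 and 15.8 without, and the SE 6 h mice lay between the mice given LEV. Its logFC was 2.83 with LEV (limma adjusted p = 0.033) and 2.86 without, and the difference of −0.03 had a 95% interval of −1.02 to 0.97. *Angpt2*, an antagonist of TIE2 that loosens vessels, had 0.34 and 0.85 CPM before SE, 5.58 and 5.6 with LEV and 5.45 and 15 without (logFC 3.14, limma adjusted p = 0.04). With *Lrg1* these made 3 calls among 14 endothelial activation and angiogenesis genes tested in limma (8 in DESeq2), with 10 higher and 1 (*Apln*) lower without adjustment at p under 0.05 and a median of 1.60 with LEV and 1.81 without.

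*Plaur* (ENSMUSG00000046223, chromosome 7 from 25247519 to 25260892), the receptor of the plasminogen activator urokinase, was the only gene of 16 in the matrix and protease list that limma called, and DESeq2 called 5 higher. It had 0.14 and 0.17 CPM before SE, 9 and 6.74 with LEV and 9.85 and 40.6 without, so that both mice given LEV lay between the pre-SE and the SE 6 h mice. Its logFC was 4.95 (s.e. 0.64, limma adjusted p = 0.0155), and the list median was 1.27 with LEV and 2.18 without. *Timp1*, an inhibitor of matrix metalloproteinases, had 0.17 and 0.19 CPM before SE, 1.93 and 3.89 with LEV and 14.8 and 13.8 without, and did not pass the test with LEV (logFC 3.35, limma adjusted p = 0.179). *Cyr61* (logFC 3.32, limma adjusted p = 0.113) and *Thbd* (logFC 2.61, limma adjusted p = 0.0748), both of the endothelial list, also did not pass. Endothelial markers (6 of 6 listed, 0 called) had a summed CPM of 76.6 and 56.8 before SE and 75.8 and 103 with LEV, and pericyte and smooth muscle markers (5 of 5, 0 called) 53.1 and 68.9 before SE and 64.0 and 132 with LEV, and their part in these results was not tested.

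Among 18 secreted growth factors, *Lif* was the only one called in limma, DESeq2 called 4 higher, with 8 higher at an unadjusted p under 0.05 and a median of 1.07 with LEV and 1.56 without. *Inhba*, the subunit of activin A, had 7.69 and 5.3 CPM before SE, 208 and 132 with LEV and 972 and 461 without. Both mice given LEV were above both pre-SE mice and below both SE 6 h mice, but the logFC of 4.68 did not pass the test (s.e. 0.85, limma adjusted p = 0.061). *Clcf1*, another gp130 ligand, had 0.03 and 0.1 CPM before SE and 0.93 and 1.52 with LEV (logFC 3.0, adjusted p = 0.295).

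Glucocorticoid targets and metallothioneins gave 0 calls of 12 in limma and 0 in DESeq2, with 5 higher at an unadjusted p under 0.05. *Mt2* and *Mt1* led them, with logFC of 1.66 and 1.34 (limma adjusted p = 0.472 and 0.396). SV2 proteins and synaptic vesicle genes also gave 0 calls of 12 in limma and 0 in DESeq2, and 0 at an unadjusted p under 0.05. *Sv2a*, which encodes the binding site of LEV, had 177 and 149.5 CPM before SE, 143 and 129 with LEV and 129 and 102 without. The largest logFC in this list were −0.49 for *Cplx1* and −0.48 for *Syn1* (limma adjusted p = 0.623 and 0.545), and the median was −0.23 with LEV and −0.47 without. Over the 14 lists together, 20 of 235 tested genes were called higher and 0 lower, and as the lists were chosen with results of these mice known, these counts are no independent evidence.

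**Figure D4:**
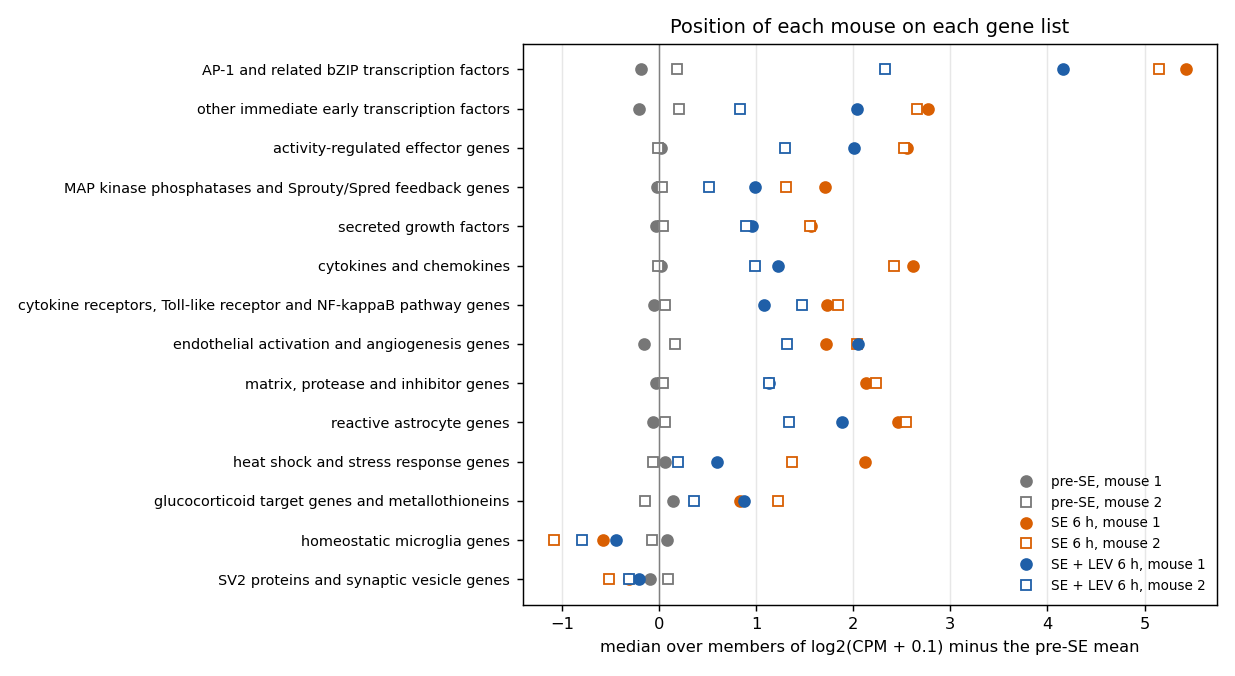
For each gene list, the median over its tested members of log2(CPM + 0.1) minus the mean of the 2 pre-SE mice is shown for every pre-SE, SE 6 h and SE + LEV 6 h mouse (filled circles replicate 1, open squares replicate 2). The 2 mice given LEV lie furthest apart in the AP-1 list, at 4.16 and 2.33, and at 1.13 in both mice in the matrix list.

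The remaining called genes also fell outside the lists. *Ctla2a* (ENSMUSG00000044258, chromosome 13 from 61035516 to 61037986), an inhibitor of cathepsin-like cysteine proteases, had 9.93 and 5.47 CPM before SE, 115 and 140.0 with LEV and 109 and 271 without. It was called in all 12 alternatives that left out no mouse (logFC 4.09, s.e. 0.40, limma adjusted p = 0.00686), and its neighbour *Ctla2b*, a close paralog with which it may share tags, was called at a logFC of 2.81. *Tubb6*, a beta-tubulin of growing cells, rose from 0.41 and 0.48 CPM to 10.6 and 11.9 (logFC 4.38, limma adjusted p = 0.0195).

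*Cenpa*, the histone H3 variant of centromeres, had 4.1 and 4.1 CPM before SE, 94.1 and 22.5 with LEV and 23.7 and 34.9 without (logFC 3.46, limma adjusted p = 0.0375), and *Ccnf*, which encodes cyclin F, had 3.52 and 3.06, 17.8 and 19.7 and 9.11 and 12.1 CPM in the same order (logFC 2.48, adjusted p = 0.02). *Baz1a*, a subunit of chromatin remodellers, rose from 0.66 and 0.97 CPM to 10.2 and 9.87 (logFC 3.49, limma adjusted p = 0.0311). *Gm20403*, annotated inside *Baz1a* on the same strand, had identical values, so that the 50 calls rest on 49 separate sets of values.

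Among genes of higher level, *Neat1*, the RNA scaffold of paraspeckles, had 143 and 164 CPM before SE, 589.6 and 691 with LEV and 410.0 and 666 without (logFC 2.06, limma adjusted p = 0.0186). *Mapk4*, an atypical MAP kinase, rose from 52.1 and 58.4 CPM to 195 and 257 (logFC 2.02, limma adjusted p = 0.0124), and SE 6 h mice had 213 and 232. *Zmiz1*, a transcriptional co-activator, rose from 68.6 and 62.3 to 206 and 211 CPM (logFC 1.67), *Arid5a*, which stabilises inflammatory mRNAs, from 10.4 and 12.3 to 53.7 and 32.9 (1.88), and *Bach1*, a repressor of antioxidant genes, from 11.6 and 13.8 to 37.6 and 32.1 (1.45). Their adjusted p values in limma were 0.0186, 0.0431 and 0.0498, the last being the highest of the 50. *Arl4d*, *Gxylt2*, *Nedd9*, *Tmem2*, *Ankrd33b*, *6820408C15Rik*, *Gm8741*, *Gm13834* and *B430219N15Rik* were the others, with logFC from 1.52 (*Tmem2*) to 4.76 (*Gm13834*, 4 tags in all before SE, ratio of summed tags 72.5 (95% counting interval 27.7 to 269.6)).

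Of the 50 genes, 44 were also called by edgeR and 50 by DESeq2 on the recovered tags. *Socs3*, *Gem*, *Ctla2a*, *Myc*, *Gadd45b* and *Pcdh8* were called in each of the 12 alternatives that left out no mouse. The 2 mice given LEV were within 1.5 times of each other in 32 of the 50 genes and over 3 times apart in 6, and replicate 1 was the higher in 30. In 19 genes the mean pre-SE level was under 1 CPM. For 10 of the 50 a gene is annotated on the opposite strand, and whether the counting used strand is not stated, so that the tags of *Ccl2*, *Bcl3*, *Angpt2* and *Icam1*, among others, are uncertain to that extent.

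The single gene called lower was *Zfp955a* (ENSMUSG00000008686, chromosome 17 from 33378464 to 33391985), a zinc finger gene. It had 18.9 and 30.1 CPM before SE and 0.83 and 0.57 with LEV. Without LEV it had 30.3 and 5.96 at 6 h and 25.3 and 24.8 at 2 days, and after 2 days with LEV it had 20.8 and 25.2. The lowest values were thus those of the 2 SE + LEV 6 h mice. The second SE 6 h mouse, at 5.96, was also below both pre-SE mice. The fall was −4.92 (s.e. 0.61, limma adjusted p = 0.0124) from pre-SE mice and −4.10 (adjusted p = 0.0725) from SE 6 h mice.

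The 50 genes were then set against SE 6 h mice, which share the pre-SE mice as their reference. The median logFC was 2.99 with LEV and 3.50 without. The direct difference between mice given LEV and not was not called for any of the 50 in limma, was estimated lower with LEV in 31 and higher in 19, and had a median of −0.28. Its 95% interval included 0 in 38 genes, lay below 0 in 9 (3.42% of all genes) and above 0 in 3 (1.16% of all genes). Since the 50 genes were chosen for high values in the mice given LEV, which enter this difference too, the choice itself favours a higher estimate with LEV, and these counts and medians are a description only. With a median interval width of 1.85, most of these differences were not resolved, and an absent call does not show that LEV left a gene as it was.

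**Figure D5:**
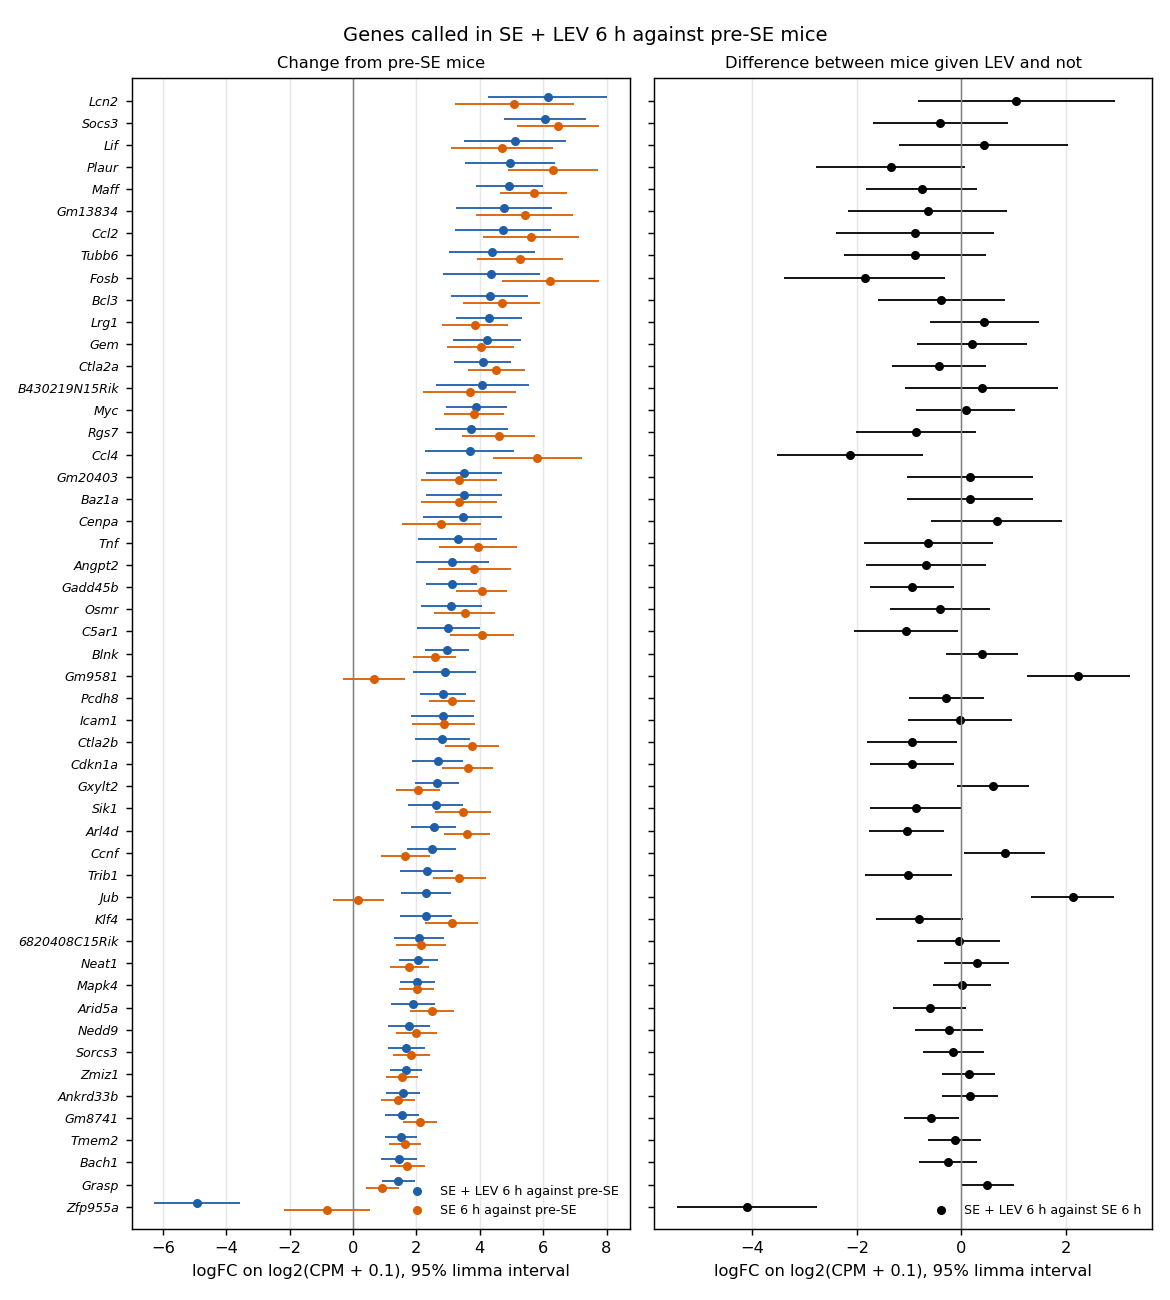
The 51 genes called in SE + LEV 6 h against pre-SE mice, in order of logFC. Left, logFC with its 95% limma interval against pre-SE mice, with LEV (blue) and without (orange). Right, the direct difference between SE + LEV 6 h and SE 6 h mice (black), whose interval includes 0 in 38 of the 50 genes called higher and lies above 0 in *Gm9581*, *Jub* and *Ccnf*.

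*Gm9581*, *Jub* and *Grasp* were called with LEV and not without it. *Gm9581* (ENSMUSG00000091562, chromosome 16 from 59556678 to 59600712) had 5.41 and 3.96 CPM before SE, 45 and 27.2 with LEV and 6.16 and 8.77 without, and both mice given LEV stood above the mice of every other group. Its logFC was 2.89 with LEV (limma adjusted p = 0.0307) and 0.66 without (adjusted p = 0.467), and the direct difference was 2.24 (95% interval 1.25 to 3.22, adjusted p = 0.194). *Jub*, which encodes the LIM protein Ajuba, had 3.41 and 3.02 CPM before SE, 14.5 and 18.1 with LEV and 4.91 and 2.67 without. Its logFC was 2.30 (limma adjusted p = 0.0314) and 0.17 (0.843), with a direct difference of 2.13 (95% interval 1.33 to 2.93, adjusted p = 0.125). The direct differences of both genes therefore did not pass the test. The logFC of *Grasp* was 1.43 with LEV and 0.93 without (limma adjusted p = 0.0375 and 0.0661), and its direct difference was 0.50 (95% interval −0.02 to 1.01).

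Finally, the 50 genes were followed to SE + LEV 2 days mice, which had received LEV 5 times. Against SE + LEV 6 h mice, 12 genes were called lower (0.0757%) and 327 higher (2.06%) of all tested, and among the 50 there were 8 called lower and 0 higher. These were *Maff*, *Gm9581*, *Pcdh8*, *Gxylt2*, *Arl4d*, *Klf4*, *Mapk4* and *Ankrd33b*. *Maff* fell from 42.7 and 15.2 CPM to 6.08 and 4.56 (logFC −2.25, limma adjusted p = 0.0422) and *Pcdh8* from 115 and 87.8 to 33.8 and 35 (−1.55, 0.0404). In 33 of the 50 both 2 days mice were below both 6 h mice (14.6% of all genes), and in 49 they were still above both pre-SE mice (22.6% of all genes). The 50 were chosen for high values in the 6 h mice that serve as the reference here, which by itself favours lower values at 2 days, so these counts describe the genes and test nothing. *B430219N15Rik*, *Fosb*, *Gem* and *Gadd45b* had lower estimates that did not pass (logFC −2.72, −2.58, −1.88 and −1.49), while *Ccl2* (37.1 and 8.01 CPM at 2 days, logFC 0.63) and *Bcl3* (28.3 and 7.11, 1.12) had higher ones with widely separated mice. *Zfp955a* was higher in the 2 days mice than in the 6 h mice, which are different animals (logFC 4.87, limma adjusted p = 0.00491). Of the uncalled members named, *Timp1* reached 181 and 25 CPM at 2 days with LEV (logFC 4.57 from 6 h, limma adjusted p = 0.0221). The 2 times also differ in the number of LEV doses, so time and dosing cannot be told apart.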

How the data were processed

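CAGE libraries of whole hippocampi from 10 ICR mice in 5 groups of 2 were used. Each replicate is a separate mouse library as far as the labels say, so the spread is one between mice. The p-values of the main test rest on a spread shared over all 10 libraries and among genes. They do not rest on the spread of the 2 groups compared alone. The authors mapped tags to mm9 with BWA 0.7.17 and HISAT2 2.0.5, clustered them with RECLU, removed clusters under 0.1 CPM and deposited CPM values per gene and mouse (bedtools 2.12.0 and edgeR 3.22.5 are also named in the submitters' notes). How clusters were summed to genes, and whether strand was used, is not given in the sources used here. The table lists 15900 genes, all matched to the mm9 annotation, and 0 of its mouse columns were unused.

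Within rounding, 100% of the CPM values corresponded to whole tags, so tags were recovered for the count tests. The main test was limma 3.58.1 (R 4.3.3) fitted to log2(CPM + 0.1) of the 10 libraries by group mean (5 groups), with a trend of variance on mean level. Genes had to reach 0.1 CPM in 2 or more libraries (15851 did), and p-values were adjusted over them by Benjamini and Hochberg. Intervals of tag ratios cover counting error only. Counts were also simulated for SE + LEV 6 h against pre-SE. On these, limma called 149 of 200 changed genes, including 100% of changes of 2 or more on the log2 scale. It made 9 false calls among 15851 genes, and 0 calls when no gene was changed. In the mice, *Inhba*, *Fosl1* and *Atf3* had logFC of 4.68, 4.43 and 4.02 and were not called. The simulation gave every gene the same spread between mice beyond counting error, and its changed genes were not drawn from those of low mean CPM. The simulated share therefore does not give the share of real changes that was found. Nor do the simulated false calls give the rate of false calls in these mice.

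Named were the 15 genes with the largest logFC among genes called higher and up to 5 called lower, all called list members, up to 2 uncalled members of each list with the largest change, genes called between SE + LEV 6 h and SE 6 h, and called genes at or above their SE 6 h level. Other called genes, 2 heat shock genes, *Stat3*, *Il6*, *Osm*, *Il6ra*, *Gadd45a* and *Hmox1* were named after their values were seen. The gene lists and members were chosen with earlier results of these data known. Alternatives were pseudocounts of 0.01, 0.5 and 1, 2 other filters, median-of-ratios rescaling, no trend, replicate number as a block and fits of 2 or 3 groups. The others were edgeR 4.0.16 (quasi-likelihood test), DESeq2 1.42.0 and 6 fits that each left out 1 mouse. Those mice were the pre-SE, SE 6 h and SE + LEV 6 h mice, and no mouse of the 2 days groups was left out. Figures were drawn with matplotlib 3.10.9 (Python 3.11.15), and SciPy 1.17.1 gave the counting intervals. Promoter windows came from RefSeq (GRCm38.p6) and mm9 coordinates from the annotation of that build, and the 2 were not mixed.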

Additional observations from a re-analysis of the deposited data

Results flagged for a closer look

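A pair of genes differed between mice given LEV and not given LEV at 6 h by the direct limma test, which is what marked them out. *Zfp184*, a zinc finger gene, had 1.24 and 1.47 CPM before SE, 13.7 and 14.9 at 6 h without LEV and 1.59 and 1.61 with it, a direct difference of −3.08 (95% interval −3.86 to −2.31, adjusted p = 0.0333) and a logFC from pre-SE mice of 0.23 with LEV (adjusted p = 0.839). *Magoh*, which encodes a core subunit of the exon junction complex, had 45 and 52.4, 354 and 314 and 84.7 and 76.5 CPM in the same order, a direct difference of −2.05 (95% interval −2.56 to −1.54, adjusted p = 0.0333) and a logFC from pre-SE mice of 0.73 with LEV (adjusted p = 0.304). edgeR called neither, with 0 genes lower in that comparison.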

How the results depend on the processing

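All 50 genes kept a higher estimate in each of the 18 alternatives. They were chosen for high values in these same mice, so this was largely fixed in advance. In the alternatives that left out no mouse, the number of the 50 still called ran from 10 (only the 2 groups compared) to 50 (DESeq2, among others). It was 14 with a pseudocount of 1 and 27 without the trend. The number of genes called higher in SE + LEV 6 h against pre-SE mice was 26 with a pseudocount of 0.5, 14 with 1, 30 without the trend, 14 with only the 2 groups compared and 351 with DESeq2, and 0 to 36 with 1 mouse left out. The number called lower was 3 with a pseudocount of 0.01, 0 with 1, 2 with only the 2 groups, 2 with 3 groups and 27 with DESeq2, and 0 to 1 with 1 mouse left out. In SE 6 h against pre-SE mice, DESeq2 called 1008 higher and 99 lower and edgeR 20 lower, and leaving out mice gave 108 to 375 higher and 2 to 23 lower. Rescaling by the median of ratios moved the median of all genes there from −0.13 to −0.005. In SE + LEV 6 h against SE 6 h mice, DESeq2 called 6 higher. There, genes called lower numbered 0 with a pseudocount of 0.01, 8 with 0.5, 9 with 1, 4 with rescaling, 1 without the trend, 0 with 2 groups, 0 with 3 groups, 0 with edgeR and 69 with DESeq2, and leaving out mice gave 0 to 2 higher and 0 to 9 lower. In SE + LEV 2 days against SE + LEV 6 h mice, genes called higher and lower numbered 96 and 1 with 2 groups, 520 and 106 with DESeq2, and 213 higher with edgeR, and leaving out mice gave 84 to 272 higher and 0 to 11 lower. The cause of these shifts was not tested. No 2 days mouse was left out, so how the SE + LEV 2 days counts depend on those mice was not tested.

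Replicate numbers were fitted as a block although same-numbered mice share only a number. The correlation of their deviations was 0.09 between SE + LEV 6 h and pre-SE mice, 0.15 between SE + LEV 6 h and SE 6 h mice, 0.23 between SE + LEV 6 h and SE + LEV 2 days mice and 0.34 between SE 6 h and pre-SE mice. The block gave 35 genes higher and 1 lower, of which 29 were among the 50, and 0 lower with LEV against SE 6 h mice. The shallowest library, 10540698 tags, limits what could be seen of genes under 0.285 CPM in that mouse.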
